A study of Mus musculus with 15 samples.

Results

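A mature miRNA is usually listed with a single 5′ end, yet part of its reads can begin 1 to 3 bases earlier or later on the same hairpin arm. These reads, often called 5′ isomiRs, were collected here from 15 mouse small RNA libraries. Inserts of 18 to 26 bases whose first 18 bases matched a named hairpin were kept, and the start with most reads over the 15 libraries was taken as the main start of each arm. Reads starting 1 to 3 bases before or after it were called shifted, and an arm entered when it had at least 500 reads within that window. Of 886 hairpin arms with any read, 160 met this minimum. They held 4340747 reads, of which 164822 (3.80%) were shifted, out of 6892924 reads in all. The arms were thus chosen by their read counts and the main start of each by its most frequent 5′ end, so the level of the share over the 15 libraries is a description with no test, while its differences between groups were not used to choose the arms. Near the minimum, miR-409-3p (502 reads, 30.3% shifted), miR-434-3p (502 reads, 4.98%) and miR-450a-5p (511 reads, 0.587%) lay just inside. Just outside were miR-134-5p (486 reads, 2.06%) and miR-128-3p (483 reads, 1.04%).

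The 5′ end of a 5p arm is set where Drosha cuts the primary transcript, and the 5′ end of a 3p arm is set where Dicer cuts the hairpin. Argonaute, the protein that holds the mature strand, pairs with targets mainly through the seed, bases 2 to 8 counted from the 5′ end. A read that starts 1 base away therefore presents another seed to target mRNAs, although it comes from the same gene.

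The libraries came from 5 groups of 3. MM3MG is a non-tumour mammary epithelial cell line of BALB/c mice. MM3MG-Her2 is that line after transduction with retroviral particles of the pLSXN-Neu vector, where Neu is the rodent Her2 receptor. TUBO cells are a breast cancer line taken from primary tumours of Balb-NeuT mice, which carry a Neu transgene. TUBO exosomes were vesicles taken from the medium of TUBO cultures, and TUBO supernatant was what was left after that isolation. All cultures were grown in DMEM with 10% FCS, so the latter groups may hold RNA from serum as well. The study asked which miRNAs of Her2 lines and of their secreted particles could regulate the progesterone receptor. No empty-vector control of MM3MG is among these samples. The labels do not say whether replicates came from separate cultures, so the spread between these libraries may be technical. The p-values of the main test (edgeR) rest on a spread estimated partly from the other arms, not on an arm's own libraries alone.

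Epithelial miRNAs were checked in each group with 7 markers of the miR-200 family, miR-203 and miR-205. They made up 2.54% to 2.66% of miRNA reads in TUBO cells but at most 0.00445% in MM3MG and 0.00397% in MM3MG-Her2, where miR-203-3p and miR-205-5p had 0 reads. The 5 stromal markers (both miR-199a arms, miR-214-3p, miR-143-3p and miR-145a-5p) made up 17.9% to 19.3% in MM3MG, 10.5% to 10.9% in MM3MG-Her2 and 4.78% in TUBO cells, in which miR-214-3p had 0 reads. By these markers the epithelial label of MM3MG was not borne out. The stromal sum in TUBO cells does not stand for every member of that list. There miR-199a-3p/miR-199b-3p held 0.149% ± 0.107 (SD, n = 3) of the shifted reads, against 34.3% ± 8.32 in MM3MG. A list of 5 blood markers made up 0.0125% to 0.0149% in TUBO cells, 1.02% to 2.49% in exosomes and 0.293% to 0.711% in supernatant. In TUBO cells miR-486-5p made up all of it, and the other 4 (miR-451a, miR-144-3p, miR-223-3p and miR-150-5p) had 0 reads. Inserts of at most 20 bases were more frequent in MM3MG-Her2 (16.1% ± 1.70, SD, n = 3), exosomes (15.9% ± 2.12) and supernatant (28.9% ± 4.67) than in MM3MG (10.2% ± 1.13) and TUBO cells (10.1% ± 0.301). Exosome replicate 3, supernatant replicate 3 and MM3MG replicate 1 stood farthest from the other libraries of their groups in arm counts. The 160 arms had 1152825 reads over the MM3MG libraries, 662451 over MM3MG-Her2, 1428262 over TUBO cells, 888517 over exosomes and 208692 over supernatant, so shares in supernatant are the least precise. PCR reads carried no molecular identifier and are not independent molecules, so errors from counting alone would be too small.

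The sequences below show what a shifted start does to the seed. For each arm the most frequent insert at the main start is followed by the most frequent one at a shifted start described in the text, each matching the hairpin over its whole length, 5′ to 3′ as in the deposited sequences (T for U), with the seed in capitals. The first set is shown because its members share seeds once shifted: both miR-101 genes give one common main seed and one common shifted seed, as do miR-10a and miR-10b, and the later start of miR-21a-3p has the seed of the earlier start of miR-214-3p.
miR-101a-3p main start: tACAGTACtgtgataactgaag
miR-101a-3p 1 base earlier: gTACAGTActgtgataactgaa
miR-101b-3p main start: tACAGTACtgtgatagctgaag
miR-101b-3p 1 base earlier: gTACAGTActgtgatagctgaa
miR-10a-5p main start: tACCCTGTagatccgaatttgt
miR-10a-5p 1 base later: aCCCTGTAgatccgaatttgtg
miR-10b-5p main start: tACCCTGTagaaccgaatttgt
miR-10b-5p 1 base later: aCCCTGTAgaaccgaatttgtg
miR-214-3p main start: aCAGCAGGcacagacaggcagt
miR-214-3p 1 base earlier: tACAGCAGgcacagacaggcagt
miR-21a-3p main start: cAACAGCAgtcgatgggctgt
miR-21a-3p 1 base later: aACAGCAGtcgatgggctgtct
The second set holds further arms whose shares are followed library by library, or start by start, in the comparisons.
miR-106b-3p main start: cCGCACTGtgggtacttgct
miR-106b-3p 2 bases earlier: tACCGCACtgtgggtacttgct
miR-140-3p main start: aCCACAGGgtagaaccacggac
miR-140-3p 1 base earlier: tACCACAGggtagaaccacgga
miR-199a-3p and miR-199b-3p main start: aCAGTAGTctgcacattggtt
miR-199a-3p and miR-199b-3p 1 base earlier: tACAGTAGtctgcacattggtt
miR-183-5p main start: tATGGCACtggtagaattcact
miR-183-5p 1 base later: aTGGCACTggtagaattcact
miR-30a-3p main start: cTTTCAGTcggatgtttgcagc
miR-30a-3p 1 base later: tTTCAGTCggatgtttgcagc
miR-203-3p main start: tGAAATGTttaggaccactag
miR-203-3p 1 base earlier: gTGAAATGtttaggaccactag
miR-99b-5p main start: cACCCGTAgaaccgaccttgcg
miR-99b-5p 3 bases later: cCGTAGAAccgaccttgcg

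On GRCm38 (GENCODE M21) the hairpin of miR-101b lies in an intron of Rcl1 (chr19:29135279-29135375, plus strand) and that of miR-101a in an exon of the long non-coding RNA E130102H24Rik (chr4:101346945-101347027, minus strand). The reads of miR-101a-3p could not be told from those of miR-101c, so they are one feature here. The miR-106b hairpin lies in an intron of Mcm7, a DNA replication helicase gene (chr5:138165737-138165818, minus strand). The miR-140 hairpin overlaps an annotated exon of Wwp2 (chr8:107551244-107551313, plus strand). The miR-214 hairpin and the copy of miR-199a on chromosome 1 both lie within exons of the antisense RNA Dnm3os (chr1:162223368-162223477 and chr1:162217814-162217923, plus strand). For miR-183 (chr6:30169668-30169737, minus strand), miR-203 (chr12:112130880-112130955, plus strand) and miR-10a (chr11:96317165-96317274, plus strand) no host gene was found on their strand. The search covered genes annotated as protein-coding, lincRNA, lncRNA, antisense or processed transcript, and no other classes.

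Shifted reads were unevenly spread over the arms. The median arm had 2.34% of its reads shifted, with quartiles at 1.19% and 6.75%. The range ran from 0% for miR-3970-5p (795 reads) to 52.6% for miR-6240-3p (742 reads). The most frequent fully matching insert of miR-3970-5p had 32 reads, was 18 bases long and differed from the start of let-7i-5p by 1 base. Where reads match a hairpin over only 18 bases, a later start cannot pass the 18-base rule. The part of that rule in the 0% was not tested. Of the 160 arms, 33 were under 1%, 32 reached 10% and 13 reached 30%. Abundant arms were mostly uniform at the 5′ end. miR-21a-5p, the most abundant, had 0.896% shifted, miR-182-5p had 0.0922%, let-7c-5p 1.09%, let-7f-5p 1.05%, miR-92a-3p 1.16%, miR-181a-5p 1.79%, miR-143-3p 1.84% and miR-30a-5p 2.77%. Above them stood miR-199a-3p/miR-199b-3p, the arms of 3 hairpins whose reads could not be told apart, at 26.9% of 118552 reads, and it held more shifted reads than any other arm. Together with miR-10a-5p, miR-140-3p, miR-30a-5p and miR-101b-3p it gave 47.5% of all shifted reads.

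The 12 arms with the highest shares after pooling the libraries were miR-6240-3p, miR-203-3p (48.6% of 1095 reads), miR-3473b/miR-3473e (44.0%), miR-127-5p (40.7%), miR-361-3p (40.1%), miR-214-3p (39.1%), miR-30a-3p (36.0%), miR-140-3p (33.3%), miR-10a-5p (33.2%), miR-101b-3p (32.5%), miR-106b-3p (31.3%) and miR-192-5p (31.2%). The main reads of miR-3473b/miR-3473e were short, 18.3 bases on average, and 438 of its 677 reads came from supernatant. In miR-6240-3p the most frequent main insert was 18 bases, the minimum length counted. Its starts 1, 2 and 3 bases earlier held 247, 77 and 66 reads, and their most frequent inserts ended at the same base. Later starts of such short inserts were not counted, and the part of this minimum in its share was not tested. miR-127-5p, of the imprinted Dlk1-Dio3 region, had 606 of its 624 reads in MM3MG. Among 11 arms listed as known for variable 5′ ends, 8 had 500 reads or more, all 8 were at 10% or above and their median was 31.0%, against 2.34% for all arms. The list was chosen with earlier results of these data known, so these values are a description and no independent check. The other 3, miR-142-3p, miR-133a-3p and miR-124-3p, which mark blood, muscle and neurons, had no read in the window under these names. The 8 were miR-203-3p, miR-140-3p, miR-10a-5p, miR-101b-3p, miR-411-5p (29.5%), miR-183-5p (20.5%), miR-10b-5p (17.1%) and miR-101a-3p/miR-101c (15.5%).

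A single base made up nearly all of the displacement. Starts 1 base later held 56.6% of the shifted reads, and starts 1 base earlier 37.2%. Starts 2 and 3 bases away held 1.68% and 0.147% on the early side and 2.41% and 1.94% on the late side. The most frequent shifted start was 1 base later in 118 arms and 1 base earlier in 30, and among the 32 arms at 10% or more it was 14 of each. Within those 32 arms, the leading shifted start held a median of 90.6% of the arm's shifted reads. In 3 arms the start 2 bases early led: miR-106b-3p had 27.7% of its reads there and 2.57% at 1 base early, miR-125b-2-3p 17.8% and 0.423%, and miR-322-3p 12% and 7.48%. Other arms had mixed later starts, such as miR-21a-3p with 11.9% of its reads 1 base late and 9.26% at 2 bases late. In miR-99b-5p the later starts were 1 and 3 bases away: in TUBO cells 3.22% ± 0.318 (SD, n = 3) began 1 base late and 4.39% ± 0.205 began 3 bases late.

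Shares were higher on the side where Dicer sets the 5′ end. The median share was 3.00% over the 76 arms on the 3p side and 1.40% over the 84 on the 5p side, and 22 of the 3p arms reached 10% against 10 of the 5p arms. Arms share libraries and families, so this is a description without a test. The same order held in each of the 15 libraries over arms with at least 20 reads: the library medians ran from 2.84% to 4.52% on the 3p side and from 1.11% to 1.85% on the 5p side. Later starts outweighed earlier ones in 74 of the 84 5p arms and in 53 of the 76 3p arms.

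In most arms with many shifted reads the mean 3′ end lay on the same side as the 5′ shift. The 3′ end was placed by insert length, so 3′ bases that do not match the hairpin count in it. In the 14 arms at 10% or more that were shifted 1 base later, the mean 3′ end of the shifted reads lay 0.16 to 1.58 bases beyond that of the main reads, in all 14. In the 14 shifted 1 base earlier it lay before it in 13, by a median of 0.51 bases over the 14, the exception being miR-3473b/miR-3473e. Over all 75 arms led by the start 1 base later with at least 50 reads there, the 3′ end lay further out in 65 and further in for 10, with a median of 0.13 bases. Over the 24 led by the start 1 base earlier it lay further in for 23, with a median of −0.61 bases. Inserts under 18 bases were not counted, and main reads of 18 or 19 bases made up 1.41% over all libraries and 3.68% to 7.05% in supernatant. The part of this minimum in the 3′ end values was not tested. Of the 32 leading shifted forms, 15 began with A, 9 with T, 4 with C and 4 with G, while the main starts of the same 32 arms were A in 10, T in 10, C in 9 and G in 3. Over all 160 arms the main start was T in 81, A in 38, C in 36 and G in 5.

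RefSeq lists a mature sequence for 145 of the 160 arms, and its start was the main start in 140. It lay 1 base earlier in 3 arms, which were among the most shifted ones: miR-101b-3p, miR-140-3p and miR-203-3p. For these the reads called shifted include those with the listed seed, and over the 15 libraries pooled the most frequent start is the unlisted one. The earlier start of miR-101a-3p/miR-101c has the seed that RefSeq lists for miR-101b-3p. Of the 32 leading shifted seeds, 6 belonged to a RefSeq mature miRNA, counting these and an arm's own listing, and none was the main seed of another of the 160 arms.

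The first comparison asks how the cancer line differs from the non-tumour line. Of 106 arms with enough reads in both (at least 20 in each library and 10 shifted), 20 changed in TUBO cells against MM3MG (18.9% of those tested, adjusted p under 0.05), 11 higher (10.4%) and 9 lower (8.49%), and 33 arms (31.1%) had no overlap between the libraries. Without MM3MG replicate 1, 16 arms changed. Both miR-101 arms rose. miR-101a-3p/miR-101c, a miRNA known to target the histone methyltransferase gene Ezh2, had 25.9%, 28.6% and 26.1% shifted reads in TUBO cells and 15.6%, 15.5% and 16.1% in MM3MG. All TUBO values were higher, by a log2 odds ratio of 0.97 ± 0.08 (SE, n = 3 against 3, adjusted p = 5.0e-13). miR-101b-3p had 39.3%, 38.8% and 39.0% against 28.5%, 28.3% and 31.4%, without overlap (0.63 ± 0.07, adjusted p = 6.4e-10). In both arms the rise was in starts 1 base earlier, from 14.5% ± 0.305 to 25.8% ± 1.75 for miR-101a-3p/miR-101c and from 26.2% ± 1.71 to 36.1% ± 0.466 for miR-101b-3p (SD, n = 3), while starts 1 base later were 1.15% and 0.955%, and 3.06% and 2.72%.

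miR-106b-3p, from the miR-106b~25 cluster, moved the other way. It had 29.3%, 28.3% and 33.2% shifted reads in TUBO cells and 44.8%, 47.5% and 44.0% in MM3MG, with no overlap (log2 odds ratio −0.94 ± 0.15, adjusted p = 4.8e-06). The start 2 bases early made up 25.6% ± 2.03 against 42.2% ± 1.71. miR-140-3p, whose hairpin gene is known from cartilage, had 29.6%, 28.7% and 29.7% against 33.4%, 36.4% and 36.3% (−0.40 ± 0.07, adjusted p = 1.8e-05). miR-9-5p, best known from the nervous system, had 0.221%, 0.236% and 0.248% in TUBO cells and 7.07%, 3.29% and 6.48% in MM3MG, where it was scarce (359 reads in all against 79869). That difference was the largest on the odds scale (−4.59 ± 0.53, adjusted p = 2.7e-09), and all MM3MG libraries were above all TUBO ones. In RPM, read counts scaled to the library's reads matched to hairpins, its shifted reads were 17.5 in MM3MG and 130 in TUBO cells, and its main-start reads were 292 and 55262.

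Smaller changes in the same comparison included the passenger strand miR-21a-3p, which rose from 20.3% ± 0.630 to 30.5% ± 2.45 (SD, n = 3, adjusted p = 0.0125). miR-320-3p rose from 5.80% ± 1.26 to 10.2% ± 0.983 (adjusted p = 0.00271). miR-423-3p was at 24.6% ± 0.648 against 19% ± 0.496 (adjusted p = 0.046), a call that was lost in 14 of 21 alternative fits. miR-23b-3p fell from 9.55% ± 1.27 to 5.14% ± 0.158, and miR-183-5p fell from 24.2% ± 0.936 to 20.6% ± 0.265 (adjusted p = 0.00842 and 0.00502). let-7a-1-3p/let-7c-2-3p rose from 0.683% to 4.20%, on 516 and 849 reads, and miR-674-3p fell from 4.89% to 0.696%, on 251 and 293 reads. The minimum of 10 shifted reads held over both groups summed. These 2 arms met it mainly through the group with the higher share, and their lower shares rest on very few shifted reads. Without 1 library the edgeR call was lost for miR-21a-3p (MM3MG replicate 2 or cell replicate 3), miR-23b-3p (MM3MG replicate 3), let-7a-1-3p/let-7c-2-3p (MM3MG replicate 1 or 3, or cell replicate 3) and miR-674-3p (MM3MG replicate 2, or cell replicate 1 or 3). DESeq2 called 14 of these 20 arms and no others, and limma on log-odds called 7, among them both miR-101 arms, miR-106b-3p, miR-9-5p, miR-23b-3p and miR-21a-3p.

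MM3MG-Her2 against MM3MG asks what differs after Neu transduction. Of 104 arms tested, 11 changed (10.6%), 6 higher (5.77%) and 5 lower (4.81%), and 24 (23.1%) had no overlap between the libraries. These calls rest on the main test: DESeq2 called 1 arm and limma 0, with 16 arms at an unadjusted edgeR p under 0.05. The arm that both edgeR and DESeq2 called was miR-378c/miR-378a-3p, from an intron-encoded metabolic miRNA family. The call was lost with limma, with earlier starts only and when the whole insert had to match. It had 3.64%, 3.59% and 4.06% shifted reads in MM3MG-Her2 and 5.84%, 6.40% and 6.30% in MM3MG (log2 odds ratio −0.77 ± 0.13, adjusted p = 5.2e-05 with edgeR, 0.0111 with DESeq2). All transduced libraries lay below all others.

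Higher shares in MM3MG-Her2 were led by miR-214-3p, a mesenchymal miRNA, with 47.5%, 45.4% and 46.1% against 38.4%, 36.7% and 34.4% (0.59 ± 0.13, adjusted p = 0.00442, 0.183 with DESeq2). Its hairpin neighbour miR-199a-3p/miR-199b-3p had 30.1%, 29.6% and 27.7% against 25.4%, 25.7% and 27.1% (0.22 ± 0.07, adjusted p = 0.0297, 0.622 with DESeq2). For both, the higher share was in starts 1 base early, at 45.1% ± 1.70 against 34.7% ± 2.25 and at 22.4% ± 1.14 against 17.7% ± 0.938 (SD, n = 3). Starts 1 base late of miR-199a-3p/miR-199b-3p went the other way, 6.52% ± 0.512 against 8.16% ± 0.490. miR-423-3p had 26.8% ± 0.390 against 19% ± 0.496, miR-101b-3p 34.5% ± 2.95 against 29.4% ± 1.73 and miR-210-3p, the hypoxia-induced miRNA, 11.1% ± 1.53 against 6.72% ± 1.44 (adjusted p = 0.016, 0.0297 and 0.016). Lower shares were measured in miR-183-5p (17.6% against 24.2%), miR-99b-5p (6.96% against 9.01%), miR-29a-3p (7.85% against 9.75%) and miR-30e-5p (2.45% against 3.83%). Without MM3MG replicate 2 the count of changed arms was 3, without MM3MG-Her2 replicate 1 it was 4, and without MM3MG replicate 1 or MM3MG-Her2 replicate 2 it was 7. Of the 10 arms named, miR-214-3p and miR-378c/miR-378a-3p passed the edgeR test whichever of the 6 libraries was left out, and the other 8 lost their calls without MM3MG replicate 2, except miR-210-3p, which lost it without MM3MG replicate 1. Leaving out MM3MG replicate 1 or any of the MM3MG-Her2 libraries also ended some of these calls. Inserts of at most 20 bases moved with this comparison too, and their part in it was not tested.

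Exosomes were compared with the TUBO cells that released them, which share the cell libraries with the comparison to MM3MG above. Of 111 arms tested, 29 changed (26.1%), 10 higher (9.01%) and 19 lower (17.1%), and 39 (35.1%) had no overlap. DESeq2 called 12 of the 29 and limma 8. Without exosome replicate 3 the count was 22, and without cell replicate 1 it was 19. miR-101a-3p/miR-101c had 10.5%, 11.4% and 6.32% shifted reads in exosomes against 25.9%, 28.6% and 26.1% in cells (log2 odds ratio −1.78 ± 0.26, adjusted p = 0.00932). No library overlapped, and replicate 3 was the lowest. Without exosome replicate 3 the value was −1.58 with an edgeR adjusted p of 9.1e-51. Without cell replicate 2 it was −1.74 with an adjusted p of 0.0536, so this p-value moved far with single libraries. miR-101b-3p had 24.7%, 26.3% and 25.6% against 39.3%, 38.8% and 39.0% (−0.91 ± 0.08, adjusted p = 2.7e-23), again without overlap.

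Read levels show what lay under these shares. Main-start reads of miR-101a-3p/miR-101c were 1917 RPM in cells and 9336 in exosomes, and its shifted reads were 703 and 1012. For miR-101b-3p the main-start reads were 4034 and 4372 RPM, and the shifted reads were 2581 and 1495. The exosome values of both arms lay below those of MM3MG as well as those of TUBO cells. Of the 5 blood markers, 4 had 0 reads in cells and all were present in exosomes, and short inserts were more frequent there. Their part in these differences was not tested.

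Other arms with a lower shifted share in exosomes were miR-106b-3p with 20.9%, 19.8% and 20.8% against 29.3%, 28.3% and 33.2%, and miR-99b-5p with 4.33%, 4.48% and 5.13% against 9.50%, 9.31% and 9.37% (adjusted p = 1.3e-07 and 4.3e-15). The starts 3 bases late of miR-99b-5p went from 4.39% ± 0.205 to 1.06% ± 0.401, and those 1 base late from 3.22% ± 0.318 to 2.83% ± 0.283. miR-192-5p, an epithelial miRNA of gut and kidney, had 23.2%, 24.4% and 21.8% against 40.4%, 36.5% and 35.4% on 218 and 340 reads (adjusted p = 0.00273). It was the only one of the 46 named arm and comparison pairs called in every alternative fit run. It had 18 such fits, however, against up to 21 for other pairs. miR-101a-3p/miR-101c in TUBO cells against MM3MG, and miR-125b-1-3p and miR-106b-3p in supernatant, failed only with later starts only, which leaves out their earlier starts. miR-181c-3p in exosomes and miR-204-3p in supernatant failed only with limma. miR-9-5p in TUBO cells against MM3MG failed only with earlier starts only. miR-181c-3p (16.5% ± 5.72 against 32.0% ± 2.52), miR-204-3p (3.43% ± 4.73 against 15.3% ± 4.58) and miR-6240-3p (50.5% ± 3.44 against 67.4% ± 4.54) were also lower, on 105 to 693 reads a group. The part of the 18-base minimum length in the shares of miR-6240-3p was not tested. miR-204-3p had 1041 main-start reads over the 15 libraries, so its low exosome share rests on few shifted reads. The minimum of 10 shifted reads held over both groups summed here as well.

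Other arms had higher shares in exosomes. miR-30a-3p, the minor strand of its hairpin, had 39.1%, 40.6% and 35.4% against 32.1%, 32.8% and 31.2% (0.40 ± 0.08, adjusted p = 2.7e-05). miR-140-3p had 31.3%, 33.9% and 37.4% against 29.6%, 28.7% and 29.7% (0.31 ± 0.08, adjusted p = 7.0e-04, 0.171 with DESeq2). miR-203-3p, a skin and epithelial differentiation miRNA, had 53.4%, 60.0% and 52.3% against 43.1%, 45.5% and 48.2% (adjusted p = 0.0153, 0.145 with DESeq2), and its RefSeq-listed start, 1 base earlier, made up 52.9% ± 5.26 in exosomes against 44.3% ± 4.19 in cells. miR-125b-1-3p had 24.7% ± 2.34 against 14.5% ± 1.73, miR-222-3p 5.96% ± 1.70 against 2.85% ± 0.315 and miR-340-5p 3.43% ± 0.952 against 1.97% ± 0.195 (adjusted p = 0.023, 0.00278 and 6.4e-04). None of these 3 was called by DESeq2. The call of miR-125b-1-3p was lost in 5 of the 6 fits without 1 library (edgeR adjusted p up to 0.0954) and in the fit of all 15 libraries. miR-222-3p lost its call without exosome replicate 2 or 3, miR-203-3p without cell replicate 1 or exosome replicate 2, miR-204-3p without exosome replicate 3, and miR-6240-3p without exosome replicate 3, cell replicate 1 or cell replicate 3.

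Supernatant left after exosome isolation was compared with the same cell libraries. Of 80 arms tested, 15 changed (18.8%), 8 higher (10%) and 7 lower (8.75%), 21 (26.2%) had no overlap, and DESeq2 called 8 and limma 3 of the 15. Without supernatant replicate 3 the count was 16. miR-106b-3p had 6.40%, 9.09% and 5.17% shifted reads against 29.3%, 28.3% and 33.2% in cells (log2 odds ratio −2.67 ± 0.28, adjusted p = 1.5e-17). The gap held without any 1 of the 3 supernatant libraries, at −2.87 to −2.42. Main-start reads of this arm were 2976 RPM in supernatant and 760 in cells, and shifted reads 210 and 329. The start 2 bases early fell from 25.6% ± 2.03 to 5.15% ± 2.54. Across the 5 groups the mean share of miR-106b-3p ran from 51.6% (MM3MG-Her2) through 45.4% (MM3MG), 30.3% (TUBO cells) and 20.5% (exosomes) to 6.89% (supernatant), with no overlap of libraries between neighbours. The step from MM3MG to MM3MG-Her2 did not pass the test (edgeR adjusted p = 0.125), and exosomes against supernatant was not tested.

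miR-183-5p, of an epithelial and sensory cluster, had 27.5%, 30.3% and 37.7% in supernatant against 20.9%, 20.6% and 20.3% in cells (0.90 ± 0.16, adjusted p = 1.5e-06). In exosomes it was slightly lower than in cells, at 18.5%, 18.3% and 18.7%. miR-125b-1-3p had 26.7%, 28.9% and 31.1% against 13.7%, 13.4% and 16.5% (1.22 ± 0.29, adjusted p = 3.2e-04). miR-378c/miR-378a-3p had 9.89% ± 2.25 against 4.36% ± 0.426, miR-30a-3p 39.7% ± 4.30 against 32.1% ± 0.796, miR-191-5p 8.77% ± 2.98 against 4.61% ± 0.561 and miR-30a-5p 3.66% ± 0.425 against 2.64% ± 0.0817. The call of miR-30a-3p (edgeR adjusted p = 0.00622) was lost in 9 of 20 alternative fits, among them DESeq2, limma and 4 of the 6 without 1 library (adjusted p up to 0.169), and that of miR-191-5p was lost without supernatant replicate 2. DESeq2 and limma called neither miR-191-5p nor miR-30a-5p. Lower shares were found in miR-99b-5p (4.56% ± 1.03 against 9.39% ± 0.0986), miR-320-3p (5.62% ± 0.417 against 10.2% ± 0.983), miR-204-3p (3.36% ± 1.99 against 15.3% ± 4.58) and miR-151-3p (3.07% ± 0.796 against 5.63% ± 0.545). The call of miR-151-3p was lost in 5 of 20 alternative fits, among them DESeq2, limma and whole-insert matches. That of miR-320-3p was lost in 3 of 20, among them limma and whole-insert matches, and turned with earlier starts only. miR-99b-5p lost it in 2 of 20 and miR-204-3p in 1 of 18. The low share of miR-204-3p in supernatant rests on few shifted reads, as in exosomes. miR-101a-3p/miR-101c had 8.70%, 20.5% and 8.11% on 207 reads in all. It was lower than in cells (adjusted p = 0.00133), but DESeq2 gave 0.0622 and without supernatant replicate 1 the adjusted p was 0.135. Short inserts were most frequent in supernatant, and their part in these shares was not tested.

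Over all 5 groups, 26 of 70 arms with enough reads in every library differed (37.1%). The smallest adjusted p-values were those of miR-106b-3p (1.5e-63), miR-101a-3p/miR-101c (4.0e-23), miR-99b-5p (1.4e-17) and miR-378c/miR-378a-3p (3.0e-12). DESeq2 called 13 and limma 10 of the 70. miR-10a-5p, a Hox-cluster miRNA with a high share, had 32.0%, 31.7% and 35.2% in MM3MG and 34.3%, 34.9% and 33.1% in MM3MG-Her2, on 31907 and 19275 reads. These libraries overlapped (log2 odds ratio 0.08 ± 0.07, adjusted p = 0.683). TUBO cells had 112 reads of it over the 3 libraries, with 31.0%, 32.0% and 36.4% shifted. Of the 8 arms listed as known for variable 5′ ends, 2 rose and 2 fell among 5 tested in TUBO cells against MM3MG, where 18.9% of all arms tested were called and the median log2 odds ratio was 0.02 against 0.07 over all arms. In exosomes against cells 2 rose and 3 fell among 6, against 26.1% called over all arms, with a median of −0.44 against −0.06. In MM3MG-Her2 against MM3MG 1 rose and 1 fell among 6 (10.6% over all arms; median 0.01 against 0.07), and in supernatant against cells 1 rose and 1 fell among 5 (18.8%; 0.04 against −0.18).

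The summed share mixes these arm shares with arm abundance. Per library, the shifted share of all arm reads was 5.70% ± 0.303 (SD, n = 3) for MM3MG, 4.49% ± 0.105 for MM3MG-Her2, 2.61% ± 0.0207 for TUBO cells, 2.87% ± 0.184 for exosomes and 2.83% ± 0.0433 for supernatant. In each of the 4 comparisons the libraries did not overlap, and the exact two-sided permutation test gave p = 0.1, the smallest that 3 against 3 allows. With inserts of 20 to 24 bases only, the difference between supernatant and cells was 0.00722 percentage points in place of 0.215 (exact permutation p = 0.9). miR-199a-3p/miR-199b-3p held 34.3% ± 8.32 of the MM3MG shifted reads, 26.8% ± 0.265 of those of MM3MG-Her2 and 0.149% ± 0.107 of those of TUBO cells. Without that arm the sums were 4.04%, 3.43% and 2.61% in the same order. The median over the arms tested had the opposite order to the sum, at 2.80% in MM3MG-Her2 against 2.58% in MM3MG and 2.35% in TUBO cells against 2.18% in MM3MG (exact permutation p = 0.3 for each).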

How the data were processed

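The deposited values are counts: per library, each distinct insert with its number of reads, as the authors left them. The study's trimming and aligner were not given in the sources used here. Per the labels' protocols, RNA was ligated to 3′ and 5′ adapters, amplified by PCR and cut from a gel at miRNA size.

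Inserts were matched to the 1174 named miRNA hairpins of GENCODE M21 (GRCm38) in Python 3.11.15. The first 18 bases had to match exactly, the hairpin with the longest exact match from the 5′ end was taken, arms sharing at least 50% of the reads of the smaller one were merged (26 of the 160), and reads still tied between arms (2671) were dropped. Mature names and starts came from RefSeq. Shifted and main-start counts were fitted with edgeR 4.0.16 in R 4.3.3 (quasi-likelihood F-test, 1 term per library and 1 for the group on shifted reads, the 2 groups compared only), with Benjamini-Hochberg adjustment over all arms tested. Log2 odds ratios are the first-named group over the second. DESeq2 1.42.0 and limma 3.58.1 were alternatives. Comparisons that share a control group are given side by side.

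The test was tried on simulated counts. An odds ratio of 2 was recovered in 14 of 20 arms and of 4 in 13 of 18 for MM3MG-Her2 against MM3MG (102 arms), in 12 of 20 and 18 of 20 for TUBO cells against MM3MG (103 arms), in 13 of 20 and 17 of 20 for exosomes against cells (110 arms) and in 12 of 19 and 17 of 20 for supernatant against cells (79 arms). False calls were 0, 2, 0 and 1. The simulated counts were binomial, with the same fixed spread between libraries for every arm, not a spread taken from the real replicates. They therefore cannot show how often the test calls falsely where real libraries spread more.

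Arms were named by rule: the 12 highest shares, the 8 most abundant arms, a list of 11 arms known for variable 5′ ends, the arms next to the minimum of 500 reads, and per comparison up to 6 arms each way with the largest difference of mean share among those past 0.05, without overlap and with 100 reads a group. Other called arms named in the text were chosen after their values were seen. The arms and lists were chosen with earlier results of these data known.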

Additional observations from a re-analysis of the deposited data

How the results depend on the processing

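The counts of changed arms, in the order MM3MG-Her2 and TUBO cells against MM3MG, exosomes and supernatant against TUBO cells, and all 5 groups, were 11, 20, 29, 15 and 26 with edgeR, 1, 14, 12, 8 and 13 with DESeq2, and 0, 7, 8, 3 and 10 with limma on log-odds. Counting earlier starts only gave 9, 8, 12, 9 and 12, over 34 to 52 arms tested, and later starts only 3, 14, 14, 11 and 17. Requiring the whole insert to match gave 7 in the first comparison, and leaving out merged arms gave 11 in the second. One fit of all 15 libraries, on 70 arms, gave 7, 13 and 14 in the first 3. Leaving out 1 library at a time gave 3 to 12, 16 to 18, 19 to 23, 13 to 16 and 22 to 28 changed arms. Same-numbered libraries did not deviate together in all pairs of any comparison, so the numbers were not taken as pairs; with the replicate block the counts were 11, 17, 24, 13 and 28. The cause of these moves was not tested, except that fewer arms or libraries entered some fits.

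Differences of the summed share ranged from −1.38 to −1.08, −3.25 to −2.95, 0.201 to 0.363 and 0.196 to 0.238 percentage points over the fits without 1 library. They reversed as the median over arms tested in the first 3 comparisons (0.218, 0.166 and −0.0251), and with earlier starts only in supernatant (−0.0151). Leaving out miR-199a-3p/miR-199b-3p, chosen after seeing the data, turned no direction. Leaving out all merged arms gave −0.341, −1.36, 0.469 and 0.374 in place of −1.22, −3.09, 0.257 and 0.215. Supernatant fell to 0.0951 with whole-insert matches and 0.00722 with inserts of 20 to 24 bases.

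Of 911 alternative fits of the 46 named arm and comparison pairs, 718 kept the call, 175 lost it and 18 reversed. With the RefSeq start as main start the log2 odds ratio turned for miR-101b-3p (−0.34, −0.69 and 0.98 in MM3MG-Her2, TUBO cells and exosomes), miR-140-3p (0.35 in TUBO cells, −0.23 in exosomes) and miR-203-3p (−0.52 in exosomes), since main and shifted reads then change places. With later starts only it turned for miR-214-3p (−0.44), miR-199a-3p/miR-199b-3p (−0.25) and miR-210-3p (−0.06) of MM3MG-Her2, for miR-101a-3p/miR-101c (−0.04 in TUBO cells, 0.14 in exosomes), miR-106b-3p (0.53 in TUBO cells) and miR-125b-1-3p (−1.64 in exosomes, −0.31 in supernatant). With earlier starts only it turned for miR-320-3p (−0.04 in TUBO cells, 0.57 in supernatant) and miR-378c/miR-378a-3p (−0.77 in supernatant). With 1 base each way it turned for miR-106b-3p in TUBO cells (0.14), whose shifted reads start 2 bases early. The cause of the other turns was not tested. Depth limits supernatant most: 80 of the 160 arms had enough reads there and in cells to be tested.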
